A study of Mus musculus with 6 samples.

Results

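Integrins are receptors made of 1 α and 1 β subunit that hold cells to the matrix and to each other and pass signals inward. Laminins are cross-shaped trimers of an α, a β and a γ chain that build basement membranes and are ligands of several integrins. In bone marrow cultures, stromal cells use β1 and αv integrins to grip collagen and fibronectin, whereas macrophages and other leukocytes carry β2 integrins. The genes described here are all rows of the deposited table with an integrin subunit symbol (Itga or Itgb followed by 1 or 2 characters, without Itgbl1) or a laminin chain symbol (Lama, Lamb or Lamc with a digit), taken once per Ensembl ID. There were 37 of them among 20071 IDs, 26 integrin subunits and 11 laminin chains.

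Poly(A) RNA was sequenced from mesenchymal stem cells (MSCs) of the bone marrow of 6-week-old C57BL/6J mice after 7 days in osteogenic medium (100 nM dexamethasone, 5 mM β-glycerophosphate and 50 µg/mL ascorbic acid). The controls were Pcif1fl/fl, with loxP sites around exons 5 to 7 of Pcif1 and no Cre, and are labelled WT. The other group was Prrx1-Cre;Pcif1fl/fl, labelled CKO and called so below. Pcif1 encodes the enzyme that methylates an adenosine next to the mRNA cap, and Prrx1-Cre is active in limb mesenchyme, so cells of other lineages in a culture keep the floxed gene. Both groups carry the floxed alleles, and the comparison asks what the Cre-driven deletion changed. Each group has 3 libraries of 20258209 to 28227696 counts. The labels do not say that they came from separate mice or cultures, and the deposited design text speaks of duplicates, so p-values measure only the spread between these libraries.

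Control replicate 3 stood apart from the other libraries. Its mitochondrial share was 3.63% against 1.40% to 1.57% elsewhere, and integrin and laminin calls that change without it are given both ways. Pcif1 itself was at 39.3 to 42.8 CPM (counts scaled to library size with edgeR's TMM factors) in controls and 37.8 to 39.7 CPM in CKO, and counts per gene do not show the removed exons. Xist, which is transcribed from the inactive X of female cells, was at 232 to 443 CPM in controls and 0.722 to 1.79 CPM in CKO, and 4 Y-linked genes summed to 115 to 159 and 219 to 230.4 CPM, so genotype and the sex of the source cells cannot be told apart. No integrin or laminin gene lies on the X or Y chromosome. The cultures held abundant macrophage transcripts, led by Lyz2 and described with the leukocyte integrins below. In such bulk RNA, fewer cells of a type and less RNA per cell cannot be told apart.

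Of the 37 genes, 34 passed the expression filter and were tested by the quasi-likelihood method of edgeR, and p-values were adjusted by Benjamini-Hochberg over all 13733 genes tested. Those with an adjusted p under 0.05 are called higher or lower, and down- or up-regulated if the log2 fold change was also at least 1 in size. In CKO, 4 of the 34 were lower (Lama1, Itga1, Itga9 and Itga11), beside 4.51% of all genes tested. Another 6 were higher (Itgax, Itga10, Itgav, Itga3, Lama2 and Itga5), beside 2.88% of all genes. Called genes thus made up 29.4% of the tested integrins and laminins. Lama1 and Itga1 were down-regulated, where the background was 2.5%, and Itgax was up-regulated, where it was 1.03%. The genotypes did not overlap for 22 of the 34 (64.7%), with CKO above in 16 and below in 6, beside 30.8% of all genes. The median log2 fold change of the 34 was 0.22, against 0.0017 over all genes. Of the 34, Itgb7 and Lamb3 reached the level of the filter in all libraries of CKO alone and Itga2 of the controls alone, so the filter in part set their direction and they support none. Without control replicate 3 all 10 calls held, and 5 genes were lower and 13 higher (12 of the 34, and Itgad, which then passed the filter through CKO alone), beside backgrounds that also grew, to 10.4% and 11.1%.

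**Figure D1:**
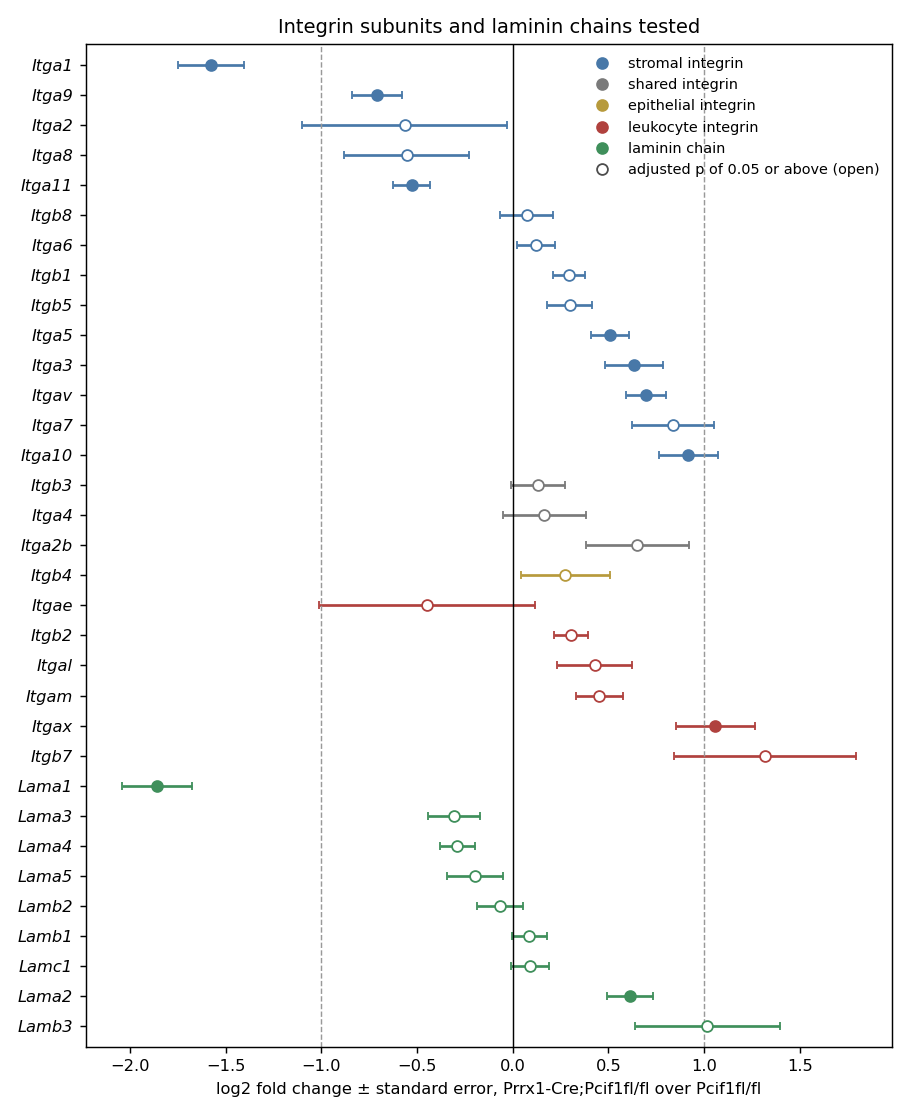
Log2 fold change (CKO over control, x axis) with its standard error for the integrin subunits and laminin chains named in the text and tested, grouped by the cells they are best known from. Filled points have an adjusted p under 0.05 and dashed lines mark a log2 fold change of 1 in size. Itga1 and Lama1 lie farthest to the left, at -1.58 and -1.86, and most stromal and leukocyte integrins lie to the right of 0.

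The first transcribed base is shown for the called genes because the enzyme made by Pcif1 acts on transcripts that begin with A. RefSeq (GRCm38.p6) listed 26 starts for 23 of the genes, 11 of them with A, 6 with C, 5 with G and 4 with T. Among all 32851 listed starts, 34.4% began with A. Of the 10 called genes, 9 were listed, and Lama1 was not. Their starts are shown with 20 bases on either side, 5′ to 3′ on the strand of the gene, with the first transcribed base in capitals.
Itga1, chr13:115101944-115101984, minus strand, lower: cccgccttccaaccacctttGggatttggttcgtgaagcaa
Itga9, chr9:118711672-118711712, plus strand, lower: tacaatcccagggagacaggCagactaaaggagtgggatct
Itga11, chr9:62677835-62677875, plus strand, lower: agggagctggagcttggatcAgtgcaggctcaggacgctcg
Itga10, chr3:96645564-96645604, plus strand, higher: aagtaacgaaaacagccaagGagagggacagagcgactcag
Itgav, chr2:83724377-83724417, plus strand, higher: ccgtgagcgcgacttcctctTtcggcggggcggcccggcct
Itga5, chr15:103366771-103366811, minus strand, higher: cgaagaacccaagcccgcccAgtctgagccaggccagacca
Itga3, chr11:95069178-95069218, minus strand, higher: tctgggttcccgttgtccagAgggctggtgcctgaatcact
Itga3, chr11:95076694-95076734, minus strand, higher: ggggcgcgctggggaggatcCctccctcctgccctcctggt
Lama2, chr10:27616922-27616962, minus strand, higher: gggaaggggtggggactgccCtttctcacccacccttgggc
Itgax, chr7:128129530-128129570, plus strand, higher: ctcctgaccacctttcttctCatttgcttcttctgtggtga
Starts with A occurred on both sides, with Itga11 among the lower genes and Itga5 and 1 of the starts of Itga3 among the higher. The starts shown for Itga9 and Lama2 and the first of Itga3 lie well inside the annotated gene, and those of Itga11 and Itgax and the second of Itga3 just inside its end. Which start was used in these cells was not measured.

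The 14 stromal integrins split, with 3 lower, beside 4.51% of all genes, 4 higher, beside 2.88%, and a median log2 fold change of 0.21. The clearest contrast was within the collagen receptors. These are the α1, α2, α10 and α11 subunits, each of which pairs with β1 and binds collagen through an inserted domain. Itga1 (chr13:114953096-115101964, minus strand), whose product prefers the collagen of basement membranes, was at 36.7, 38.7 and 55.9 CPM in the controls and 15.4, 14.7 and 13.9 CPM in CKO. Every CKO library was far below every control, and the highest control was replicate 3. The log2 fold change was -1.58 (standard error, SE, 0.17, adjusted p = 0.0012), or -1.36 without control replicate 3.

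Itga11 (chr9:62677826-62783982, plus strand), the receptor for fibrillar collagen of fibroblasts and osteogenic cells, was at 293, 266 and 278 CPM in the controls and 202, 175 and 203 CPM in CKO. The groups did not overlap, and the log2 fold change was -0.53 (SE 0.096, adjusted p = 0.0129). Itga10 (chr3:96645584-96664519, plus strand), best known from cartilage cells, went the other way. It was at 16.3, 17.6 and 11.9 CPM in the controls and 28.3, 27.7 and 30.5 CPM in CKO, with a log2 fold change of 0.92 (SE 0.15, adjusted p = 0.0092). All 3 CKO libraries were above all controls. Itga2 was scarce, at 1.07 to 1.92 CPM in controls and 0.315 to 1.79 CPM in CKO, and its log2 fold change of -0.56 did not pass the test (adjusted p = 0.595). Itga11 lost its call when any 1 CKO library was left out (log2 fold change -0.56 to -0.46, adjusted p = 0.061 to 0.0667), and Itga10 without CKO replicate 3 (0.88, adjusted p = 0.0554). Exons of Itga10 share 33.5% of their bases with a read-through gene on the same strand, Gm42957, which was not analysed here.

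Scaled to exon length, the collagen receptors differed between genotypes in amount and in make-up. Their summed level was 59.8 ± 2.53 CPM per kb (SD, n = 3) in controls and 44.1 ± 3.21 CPM per kb in CKO, without overlap. Itga11 supplied most of it in both, with 90.8% ± 0.58 of the sum in controls and 85.3% ± 0.99 in CKO. The share of Itga10 was 4.93% ± 1.03 and 12.6% ± 0.65, and that of Itga1 was 3.94% ± 0.98 and 1.79% ± 0.17. In CKO, Itga10 was well above Itga1 in each library. Per kb of the longest coding transcript, the shares of Itga1 were 6.31% ± 1.53 and 2.92% ± 0.27 and those of Itga10 4.80% ± 1.02 and 12.4% ± 0.64, so the order of both in controls depends on the length used, while that in CKO and the lack of overlap between genotypes do not.

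**Figure D2:**
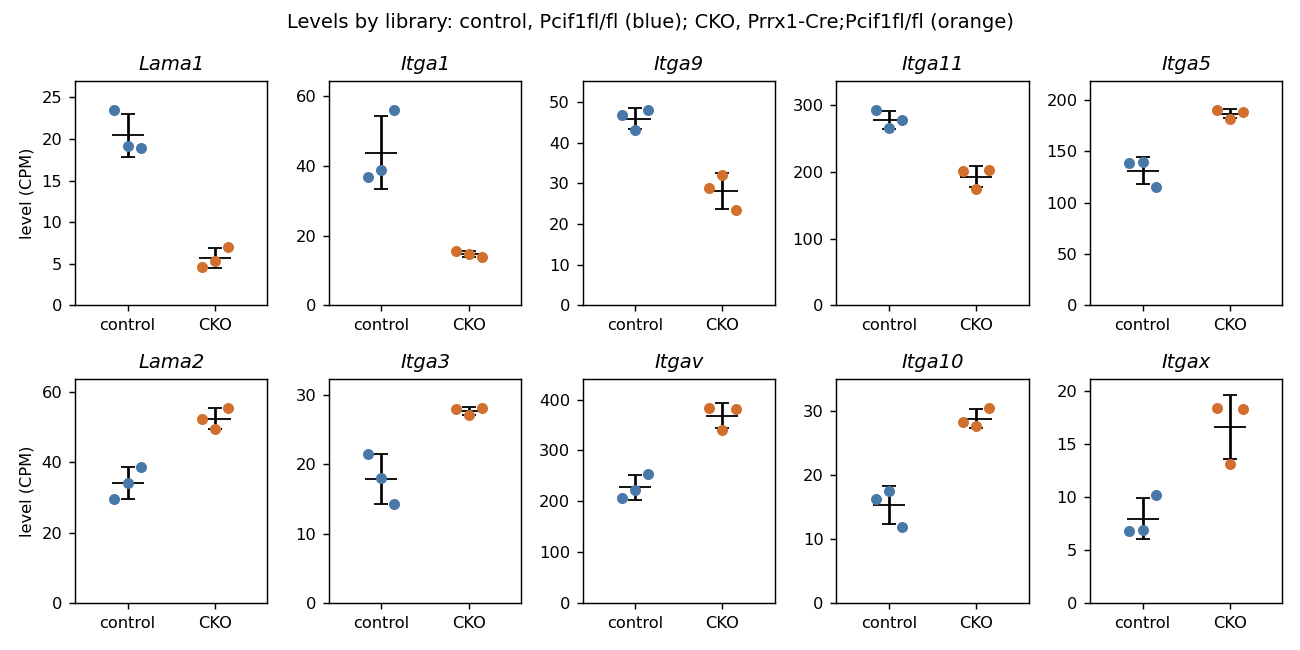
Level in CPM (y axes, each from 0) of the 10 called genes in the 3 control and 3 CKO libraries, ordered by log2 fold change. Points are libraries and bars are the mean with its SD. In each panel the points of the genotypes are apart, the closest in ratio being Itga3, with 21.4 CPM in the highest control and 27.1 CPM in the lowest CKO library.

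Of the 3 stromal α subunits that recognise an RGD sequence, as in fibronectin and vitronectin, 2 were higher in CKO. The platelet subunit Itga2b, which also binds RGD, is given with the platelet markers. Itgav (chr2:83724397-83806916, plus strand), whose product αv pairs with several β subunits and also binds the latent form of TGF-β, was at 205, 223 and 254 CPM in the controls and 383, 340.3 and 381 CPM in CKO. The lowest CKO library lay well above the highest control, and the log2 fold change was 0.70 (SE 0.11, adjusted p = 0.0058). Itga5 (chr15:103344286-103366763, minus strand), the main fibronectin receptor subunit with β1, was at 139, 139 and 116 CPM in the controls and 190.0, 182 and 188 CPM in CKO. The CKO values were tightly grouped above the controls, with a log2 fold change of 0.51 (SE 0.099, adjusted p = 0.0173). Leaving out any 1 CKO library took that call away (0.50 to 0.53, adjusted p = 0.0745 to 0.103), while Itgav stayed called in each alternative tried. Itga8, the nephronectin receptor subunit, was at 2.10 to 5.13 CPM in controls and 2.03 to 2.59 CPM in CKO (log2 fold change -0.55, adjusted p = 0.383, or -0.14 and 0.762 without control replicate 3, the highest).

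The order of the most abundant α subunits differed between genotypes, and in part with the length used. Per kb of all exons, Itga11 led in controls, at 54.3 ± 2.6 CPM per kb, above Itga6 at 26.8 ± 1.4, Itga5 at 26.6 ± 2.7 and Itgav at 21.1 ± 2.3, and Itga5 overlapped both Itga6 and Itgav. In CKO, Itga5 at 37.8 ± 0.87 and Itga11 at 37.7 ± 3.1 CPM per kb differed by less than their spread, Itgav at 34.3 ± 2.3 overlapped Itga11, and Itga6 was at 29.2 ± 2.7. Per kb of the longest coding transcript, Itga6 at 56.2 ± 3.0 and Itga11 at 56.1 ± 2.7 overlapped in controls, above Itgav at 32.2 ± 3.5 and Itga5 at 29.9 ± 3.1. On that scale Itga6 led in CKO at 61.2 ± 5.7, followed by Itgav at 52.2 ± 3.4, Itga5 at 42.6 ± 0.98 and Itga11 at 38.9 ± 3.2, and Itgav no longer overlapped Itga11. With both lengths, Itga11 was above Itga5 and Itgav in every control library.

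Among the laminin-binding α subunits, Itga3 was called. This subunit of the laminin-332 and laminin-511 receptor (chr11:95044474-95076801, minus strand) was at 21.4, 17.97 and 14.3 CPM in the controls and 28.04, 27.1 and 28.1 CPM in CKO. The groups did not overlap, the CKO libraries were nearly equal, and the log2 fold change was 0.63 (SE 0.15, adjusted p = 0.042). It was the weakest of the 10 calls, and was lost without control replicate 2 or any CKO library (adjusted p = 0.122 to 0.16). Itga6, the most abundant laminin receptor subunit, was at 233, 236 and 257 CPM in the controls and 250.4, 292 and 249 CPM in CKO. Its genotypes overlapped (log2 fold change 0.12, adjusted p = 0.532). Itga7, known from muscle, was at 2.69 to 4.19 CPM in controls and 5.45 to 7.17 CPM in CKO, above in every library, and missed the threshold (0.84, adjusted p = 0.0544). It passed with DESeq2 (adjusted p = 0.0132) and without control replicate 3 (0.66, adjusted p = 0.0173).

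Itga9 (chr9:118606690-118901003, plus strand), a receptor for tenascin and osteopontin, was lower. Its level was 46.8, 43.1 and 48.0 CPM in the controls and 28.9, 32.1 and 23.4 CPM in CKO, and no library overlapped. The log2 fold change was -0.71 (SE 0.13, adjusted p = 0.0143), and without CKO replicate 1 or 3 the call was lost (-0.72 and -0.59, adjusted p = 0.0705 and 0.0618). Its close relative Itga4, which is found on leukocytes as well as mesenchyme, was at 58.3, 71.0 and 109 CPM in the controls and 81.7, 102 and 83.3 CPM in CKO. Control replicate 3 was the highest of the 6 libraries, the groups overlapped, and the log2 fold change was 0.16 (adjusted p = 0.708). Without that library, Itga4 was higher in CKO, at 0.46 (adjusted p = 0.0041).

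Itgb1 (chr8:128685654-128733200, plus strand), the common partner of most of these α subunits, was the most abundant integrin. It was at 857, 898 and 909 CPM in the controls and 1082, 1125 and 1060.2 CPM in CKO. The groups were well apart and each was tight, but the log2 fold change of 0.29 (SE 0.083) missed the threshold at adjusted p = 0.0731. It passed with DESeq2 (0.30, adjusted p = 0.0207) and without control replicate 3 (0.31, adjusted p = 0.0013). Itgb5, a partner of αv, was at 504, 450.3 and 369.7 CPM in the controls and 552, 543 and 531 CPM in CKO. All CKO libraries were above, and the controls were spread (log2 fold change 0.30, adjusted p = 0.196, or 0.19 and 0.047 without control replicate 3). Itgb8, which with αv activates latent TGF-β, was at 9.61 to 11.5 CPM in controls and 10.7 to 12.4 CPM in CKO. Itgb3, shared by platelets, osteoclasts and stromal cells, was at 13.9, 13.4 and 11.5 CPM in the controls and 14.4, 15.8 and 12.5 CPM in CKO. The groups overlapped for both, with log2 fold changes of 0.07 and 0.13.

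The β partners of αv had nearly the same proportions in both genotypes. Itgb1 made up 63.2% ± 4.21 of their summed CPM per kb in controls and 63.1% ± 0.63 in CKO, and Itgb5 35.9% ± 4.21 and 36.1% ± 0.68. Itgb1 stood at 218 ± 6.8 CPM per kb in controls and 267 ± 8.1 in CKO, and the 12 α subunits that can pair with it summed to 150.1 ± 2.76 and 161 ± 2.36 CPM per kb. Both measures were above the controls in all CKO libraries.

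Markers of stromal and other non-leukocyte cells did not all go with the lower stromal integrins. Of the 11 stromal markers, 4 were lower (Cxcl12, Lepr, Eng and Pdgfra) and 4 higher (Col1a1 and Col1a2 among them). That is 72.7% called, beside 7.4% of all genes, and their median log2 fold change was 0.25. They summed to 10540 to 13417 CPM in controls and 13525 to 14399 CPM in CKO, above the controls in every CKO library. Of 9 smooth muscle and pericyte markers, Rgs5 (log2 fold change -1.99) and Mcam (-1.05) were lower (22.2% called). Cspg4 lay above the controls in all CKO libraries (3.30 to 3.79 and 4.96 to 5.99 CPM, 0.64, adjusted p = 0.0541), and DESeq2 called 4 lower and 1, Cspg4, higher. The list summed to 528 to 694 CPM in controls and 561 to 587 CPM in CKO. None of the 8 endothelial markers was called by edgeR (1 lower at an unadjusted p under 0.05, Cdh5 lower with DESeq2, none with limma-voom), while their sum was 27.1 to 39.0 CPM in controls and 23.3 to 25.3 CPM in CKO, without overlap. Of 8 osteoblast markers 7 were tested (42.9% called), and Sp7, Alpl and Ibsp were lower (-1.88, -1.11 and -1.25), with a summed level, mostly Spp1, of 10093 to 17231 CPM in controls and 12061 to 20293 CPM in CKO. All 3 genes belong to the osteoblast programme. Among 6 Schwann cell markers S100b was lower (-1.45), with Sox10 near 0 and sums of 141 to 146 and 134 to 147 CPM. The part of these cells in the results for Itga1, Itga9, Itga11 and Lama1 was not tested.

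Among the 11 laminin chains, 10 were tested, 1 was lower and 1 higher, beside 4.51% and 2.88% of all genes, and the median log2 fold change was 0.01. The α chains, which carry most of the receptor-binding sites, differed from each other. Lama1 (chr17:67697259-67822647, plus strand), the α chain of the laminin of early embryos, had the largest fall of all 34 genes. It was at 23.5, 19.1 and 18.9 CPM in the controls and 4.59, 5.38 and 6.98 CPM in CKO. The highest CKO library was far below the lowest control. The log2 fold change was -1.86 (SE 0.18, adjusted p = 0.00068), and it lay between -2.04 and -1.72 in each alternative tried.

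Lama2 (chr10:26980036-27619758, minus strand), the α chain of the laminin around muscle fibres and many mesenchymal cells, was at 29.7, 34.1 and 38.7 CPM in the controls and 52.4, 49.3 and 55.4 CPM in CKO. It was higher without overlap, with a log2 fold change of 0.61 (SE 0.12, adjusted p = 0.0183). The call was lost without control replicate 2 or any CKO library (0.57 to 0.66, adjusted p = 0.0615 to 0.105). Lama4, found in vessel walls, fat and marrow stroma, was at 82.7, 75.5 and 86.6 CPM in the controls and 67.9, 64.3 and 68.2 CPM in CKO. Every CKO library was below the controls, yet the log2 fold change of -0.29 missed the threshold (adjusted p = 0.105), and passed it without control replicate 3 (-0.24, adjusted p = 0.0241). Lama3, of epithelial laminin, was at 10.9 to 13.4 CPM in controls and 9.14 to 10.4 CPM in CKO (-0.31, adjusted p = 0.242). Lama5 was at 16.7 to 20.5 CPM in controls and 14.2 to 18.5 CPM in CKO (-0.20, adjusted p = 0.489).

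The make-up of the α chains differed mainly in Lama1 and Lama2. In controls, 15.4% ± 1.91 of the summed CPM per kb was Lama1 and 15.2% ± 1.88 Lama2. In CKO the shares were 4.98% ± 0.89 and 27.4% ± 0.07. Lama4 was the main α chain in both, at 49.1% ± 1.62 and 47.4% ± 1.43, with overlap. Per kb of the longest coding transcript, the shares in controls and CKO were 9.78% ± 1.31 and 3.04% ± 0.56 for Lama1, 16.1% ± 1.86 and 27.95% ± 0.27 for Lama2, and 61.2% ± 1.45 and 56.8% ± 1.24 for Lama4. On that scale Lama1 was below Lama2 in controls too, and Lama4 no longer overlapped between genotypes. The summed α chains were at 13.8 ± 0.50 CPM per kb in controls and 11.7 ± 0.66 in CKO, without overlap.

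**Figure D3:**
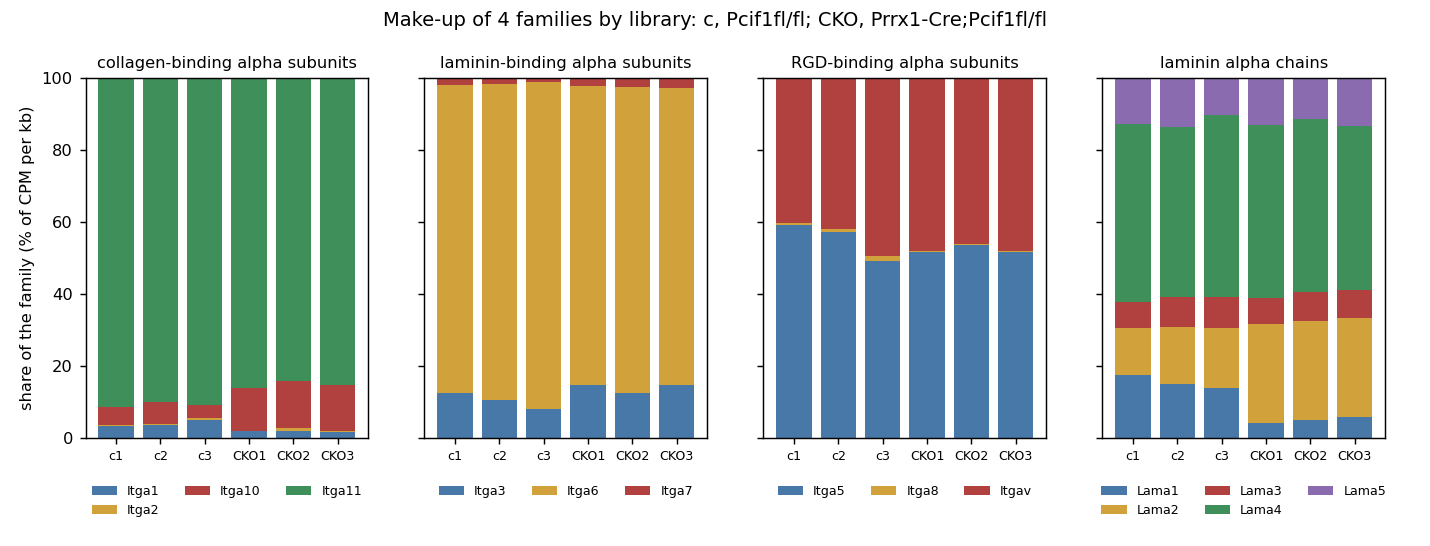
Share of each gene in the summed CPM per kb of exon of its family (y axis, %), in each control (c1 to c3) and CKO library. Among collagen-binding α subunits the Itga10 band is wider in CKO, at 12.6% against 4.93%, and among laminin α chains the Lama1 band is narrower and the Lama2 band wider. The laminin-binding and stromal RGD-binding subunits are led by Itga6 and by Itga5 with Itgav in all libraries.

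The β and γ chains, with which the α chains assemble, were not called by edgeR, DESeq2 or limma-voom (0 lower and 2 higher at an unadjusted p under 0.05, of which Lamb3 passed the filter through CKO alone). Lamb1 was at 298, 279 and 255 CPM in the controls and 302, 284 and 297 CPM in CKO, and Lamc1 at 206, 185 and 221 CPM in the controls and 228, 200.2 and 224 CPM in CKO. Both genotypes overlapped, with log2 fold changes of 0.09 each (adjusted p = 0.633 and 0.657). Lamb2, the β chain of mature basement membranes, was at 98.7 to 130 CPM in controls and 105 to 119 CPM in CKO (-0.07, adjusted p = 0.788). Summed per kb, the β chains stood at 47.3 ± 4.83 in controls and 48.2 ± 2.10 in CKO. Lamb3, a partner of Lama3 in epithelial laminin, was scarce. It was at 0.218 to 0.368 CPM in controls and 0.585 to 0.770 CPM in CKO (1.02, adjusted p = 0.164). All CKO libraries were above the controls. Lamc3 had 1, 0 and 0 counts in the controls and 2, 2 and 1 in CKO and was not tested.

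Itgb4, the epithelial partner of α6, was at 1.35, 1.43 and 1.18 CPM in the controls and 1.58, 1.64 and 1.59 CPM in CKO (0.28, adjusted p = 0.55). Itgb6, also epithelial, had 0, 0 and 6 counts in the controls and 0, 0 and 2 in CKO and was not tested. Of the 8 epithelial markers, 4 had a row in the deposited table and only Krt19 was tested (1.58, adjusted p = 0.0557). They summed to 0.772 to 1.31 CPM in controls and 1.71 to 2.99 CPM in CKO, above in every library as Itgb4 was. Whether epithelial cells took part in those values was not tested.

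Among the leukocyte integrins, Itgb2 and Itgam were abundant in these MSC cultures and the others were low. Itgb2, the β subunit of all leukocyte-restricted β2 integrins, was second only to Itgb1 per kb, at 154 ± 8.1 CPM per kb in controls and 189 ± 9.8 in CKO. Of the 7 leukocyte subunits 6 were tested, none was lower, 1 was higher (Itgax), beside 2.88% of all genes, and the median log2 fold change was 0.44. At an unadjusted p under 0.05, 0 were lower and 4 higher, of which Itgb7 passed the filter through CKO alone, beside 11.8% and 9.56% of all genes. DESeq2 called 0 lower and 4 higher, with Itgad, beside 4.14% and 2.95% of all genes, and limma-voom 0 and 1, beside 4.202% and 2.85%. The CKO libraries lay above all controls for Itgb2, Itgam and Itgax, beside 15% of all genes, and for the scarce Itgb7 and the untested Itgad, of which the first passed the filter through CKO alone and the second did not pass.

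Itgb2 was at 494, 468 and 445 CPM in the controls and 579, 608 and 548 CPM in CKO. The lowest CKO library was above the highest control, and the log2 fold change of 0.30 (SE 0.089) missed the threshold at adjusted p = 0.0843. Itgam (chr7:128062640-128118491, plus strand), which encodes CD11b of the complement receptor on macrophages and neutrophils, was at 92.2, 82.2 and 98.4 CPM in the controls and 115, 144 and 114 CPM in CKO. The groups did not overlap, with CKO replicate 2 the highest, and the log2 fold change was 0.45 (SE 0.12, adjusted p = 0.0645). With DESeq2, Itgb2 and Itgam passed (adjusted p = 0.0371 and 0.0226), as they did without control replicate 3 (0.27 and 0.52, adjusted p = 0.0066 and 0.0012). Exons of Itgam share 68.7% of their bases with Gm49368, a read-through gene on the same strand that was not analysed here.

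Itgax (chr7:128129547-128150657, plus strand), which encodes CD11c of dendritic cells and some macrophages, was the up-regulated gene. It was at 6.77, 6.91 and 10.1 CPM in the controls and 18.4, 13.1 and 18.3 CPM in CKO. The lowest CKO library, replicate 2, was still above the highest control, replicate 3, and the log2 fold change was 1.06 (SE 0.21, adjusted p = 0.0185). The call was lost without control replicate 1 or 2 or CKO replicate 1 or 3 (0.96 to 0.99, adjusted p = 0.0605 to 0.0928). Itgal, the α subunit of LFA-1, was at 3.84 to 4.67 CPM in controls and 4.41 to 6.57 CPM in CKO, with overlap (0.43, adjusted p = 0.256). The mucosal lymphocyte subunits were scarce. Itgae was at 0.179 to 0.743 CPM in controls and 0.249 to 0.481 CPM in CKO (-0.45, adjusted p = 0.698), and Itgb7 at 0.179 to 0.568 and 0.625 to 1.26 CPM (1.32, adjusted p = 0.149).

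Itgad, which encodes CD11d of certain tissue macrophages, had 1, 4 and 1 counts in the controls and 14, 8 and 24 in CKO. It did not pass the filter. The summed counts, 6 against 46 and scaled to library size, gave a ratio of 9.48 (95% exact interval 4.04 to 27.2, counting error only). Without the filter its log2 fold change was 3.16 (adjusted p = 0.0182), and with DESeq2 3.26 (adjusted p = 0.0062). In the 4 fits without 1 library in which it passed the filter, through CKO alone, it was 2.81 to 4.03, and it was not called without control replicate 1 (2.93, adjusted p = 0.0799). Itgam, Itgax and Itgad lie side by side on chromosome 7, with gaps of 11.1 kb and 3.72 kb. Whether any reads could be assigned to more than 1 of them was not tested.

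Itgam and Itgax, neighbours with different values here, are shown with the 100 bases before their RefSeq starts, because the myeloid factor PU.1, encoded by Spi1, is known to act on the promoter of CD11b. GAGGAA, a core of its binding site, was searched on both strands in 250 bases before each start, and matches are in capitals.
Itgam, chr7:128062540-128062639, plus strand: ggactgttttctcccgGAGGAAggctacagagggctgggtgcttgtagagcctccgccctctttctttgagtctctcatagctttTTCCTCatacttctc
Itgax, chr7:128129450-128129549, plus strand: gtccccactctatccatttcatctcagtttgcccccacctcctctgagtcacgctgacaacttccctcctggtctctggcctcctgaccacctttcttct
Itgam held 2 matches in 250 bases and Itgax none, and 23.3% of all listed starts hold at least 1. Only this exact string was searched, so other forms of the site would be missed. Binding was not measured in these cells.

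The 18 macrophage markers give the background for these values. None was at 0 in any library, none was lower (1 at an unadjusted p under 0.05, 0 with DESeq2 or limma-voom), 2 were higher (5 at an unadjusted p under 0.05, 3 with DESeq2 and 2 with limma-voom), and their median log2 fold change was 0.16. The share called was 11.1%, beside 7.4% of all genes in either direction. The CKO libraries lay above all controls for 6 of the 18, Fcgr1, Cx3cr1, Cd14, Cd53, Adgre1 and Mpeg1, and below for 1, Csf1r, which is 38.9% without overlap beside 30.8% of all genes. The log2 fold change of Cd53 was 0.31 (adjusted p = 0.0942), beside 0.30 for Itgb2. The 2 past the threshold were Fcgr1, an IgG receptor (0.89, adjusted p = 0.0061), and Cx3cr1, the fractalkine receptor (1.24, adjusted p = 0.0293). The markers summed to 37219 to 40032 CPM in controls and 37829 to 41083 CPM in CKO, which overlap. Without Lyz2, the sums were 14328 to 15079 and 14341 to 16081 CPM. Itgam stood at 2.34 ± 0.29 CPM per 1000 CPM of the 18 markers in controls and 3.20 ± 0.53 in CKO, Itgb2 at 12.0 ± 0.27 and 14.8 ± 1.00, and Itgax at 0.205 ± 0.058 and 0.425 ± 0.072. For those 3, the CKO libraries were above all controls with either sum, while Itgal overlapped.

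**Figure D4:**
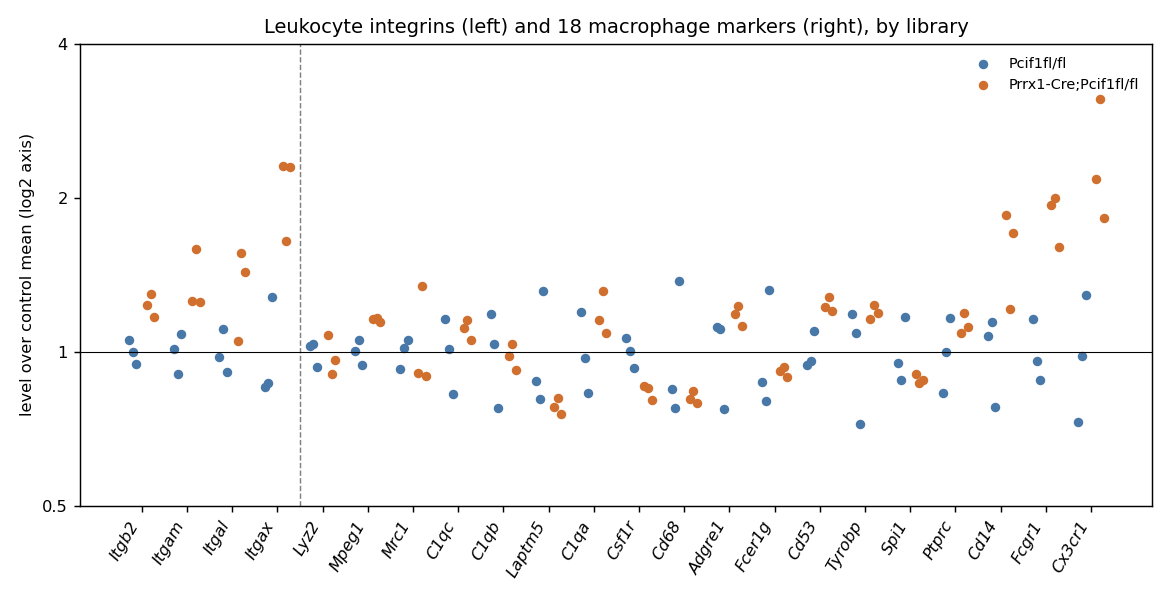
Level of 4 leukocyte integrins (left of the dashed line) and 18 macrophage markers, ordered by control level, in each library, divided by the control mean (log2 axis). Blue points are controls and orange points CKO. The CKO points of Itgb2, Itgam and Itgax lie above all of their control points, as do those of 6 of the 18 macrophage markers.

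Other leukocyte lists were low. Of 12 neutrophil markers, 9 had a row in the deposited table and 4 were tested. S100a8 was higher (1.45, adjusted p = 0.0394), at 0.294 to 0.611 CPM in controls and 1.11 to 1.40 CPM in CKO. Of the controls 2 reached the level of the filter, and all 3 CKO libraries did. Ngp and Elane were at or near 0, and the sums were 13.9 to 19.5 CPM in controls and 17.5 to 21.8 CPM in CKO. The dendritic cell list, of which Itgax is a customary companion, held 1 tested gene of 8, Zbtb46, which was lower (-1.31, adjusted p = 0.0414), with Flt3, Xcr1 and Clec9a at or near 0 and sums of 3.05 to 3.57 and 1.58 to 2.49 CPM. Of 12 lymphocyte markers, 6 had a row in the deposited table and Cd4 alone was tested (-0.23). The sums were 2.97 to 3.57 and 2.16 to 3.98 CPM, mostly Cd4. Each of these 3 marker lists summed to far less than the macrophage markers. None of the 8 osteoclast markers was called by edgeR, DESeq2 or limma-voom (1 higher at an unadjusted p under 0.05), with sums of 190.2 to 194 CPM in controls and 198 to 209 CPM in CKO. Itga2b, the platelet α subunit that pairs with β3, was at 1.44, 1.47 and 0.932 CPM in the controls and 2.30, 1.89 and 1.83 CPM in CKO. It lay above in all CKO libraries without passing the test (0.65, adjusted p = 0.207). Of 8 platelet markers, 5 had a row in the deposited table. None was called by those 3 tools (1 higher at an unadjusted p under 0.05). Ppbp and Gp9 were near 0, and the sums of 5.59 to 9.26 CPM in controls and 9.59 to 11.7 CPM in CKO did not overlap. The part of these cells in the integrin values was not tested.

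Inside the cell, integrins are tied to actin by talins, kindlins, tensins and the complex of Ilk, Pinch and parvins. Of 41 such genes 39 were tested, 2 were lower and 1 higher, with a median log2 fold change of 0.02. The share called, 7.69%, was near the 7.4% of all genes. Tln2, a talin, was at 121, 112 and 107 CPM in the controls and 61.5, 55.6 and 61.2 CPM in CKO (-0.93, adjusted p = 0.00072). Tns1, a tensin of fibrillar adhesions, was at 757, 721 and 752 CPM in the controls and 469, 507 and 454 CPM in CKO (-0.64, adjusted p = 0.0031). Neither overlapped. Lims1, which encodes Pinch, was at 123, 135 and 137 CPM in the controls and 167, 168 and 172 CPM in CKO (0.36, adjusted p = 0.0366). The tetraspanin Cd9 (0.81, adjusted p = 0.052) and Parvg, the parvin of blood cells (0.51, adjusted p = 0.101), came next without passing. Most of the exonic bases of Ilk (76.7%) lie opposite exons of Taf10, so its count is uncertain.

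Of the genes for proteins that meet laminins in basement membranes, 24 of 28 were tested, 3 were lower and 4 higher (29.2% called, beside 7.4% of all genes), with a median log2 fold change of -0.06. Lower were Smoc1, a matrix calcium-binding protein (-1.93, adjusted p = 0.00076), Npnt, which encodes nephronectin (-1.64, adjusted p = 0.00098), and Nid2, which links laminin to collagen IV (-0.86, adjusted p = 0.0012). Higher were Ntn4, a netrin that binds laminin γ chains (0.98, adjusted p = 0.0012), and Fbln2 (0.69, adjusted p = 0.0031), besides Col4a5 and Agrn. Nid2 was at 96.3, 84.9 and 98.0 CPM in the controls and 50.1, 51.6 and 52.5 CPM in CKO. Npnt was at 26.6, 24.4 and 25.5 CPM in the controls and 7.88, 10.3 and 6.40 CPM in CKO. For both, all CKO libraries were far below the controls.

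Of 31 ligands of integrins outside the laminins, 24 were tested, 4 were lower and 6 higher (41.7% called, beside 7.4%), and the median log2 fold change was 0.08. Tnn, which encodes tenascin-W of forming bone, was at 23.5, 25.6 and 24.1 CPM in the controls and 119, 96.4 and 108 CPM in CKO (2.14, adjusted p = 5.2e-05). Ibsp, the RGD protein bone sialoprotein, was at 399, 439 and 502 CPM in the controls and 205, 192 and 168 CPM in CKO (-1.25, adjusted p = 0.00059). Neither overlapped between genotypes. Npnt, the ligand of α8β1 named above, was lower. Edil3, an RGD ligand of αv integrins, and Ccn2 were higher (0.61 and 0.57, adjusted p = 0.0054 and 0.007). Col1a1, Col1a2 and Postn were higher, and Vcam1 and Tgfbi lower. The collagen I genes were thus higher in the same libraries in which Itga1 and Itga11 were lower and Itga10 was higher. Without control replicate 3, the higher genes numbered 7 of the adhesion machinery, 7 of the basement membrane list and 10 of the ligands, beside 11.1% of all genes. The lower genes of these lists in that fit are not counted here, and over all genes 10.4% were lower.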

How the data were processed

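The authors sequenced 6 libraries of poly(A) RNA, 3 per genotype. The deposited values are raw counts of reads per gene, which the authors mapped to mm10 with HISAT2. How reads were counted (software, annotation, strand) is not given in the sources used here, so antisense and overlapping genes can share reads. Of 20163 rows, 92 repeated an ID with identical counts, leaving 20071. Groups were taken from the sample labels.

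One model without covariates was fitted over all genes with edgeR 4.0.16 in R 4.3.3, after filterByExpr and TMM scaling (glmQLFit, glmQLFTest). Standard errors were obtained from each log2 fold change and its F statistic. With 3 libraries against 3, an exact permutation test of 1 value cannot give a p below 0.1. Positions and exon lengths came from GENCODE M21 (GRCm38), which held 20059 of the IDs. Length-scaled levels, sums and shares are descriptions without a test. Intervals cover counting error only, since PCR copies cannot be recognised in a table of counts. The fit was tested on simulated data.

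The genes, the lists, their roles and the cells they are assigned to were chosen with earlier results of these data known. By rule, values in all libraries are given for called genes, Itgb1, Itgam and the most abundant gene of each role. The other genes are given by range or counts, with up to 5 genes of each pathway list by smallest p and up to 4 of each marker list. Genes named beyond that, and library values for list genes, were chosen after their values were seen. Alternatives were DESeq2 1.42.0, RLE and total-count scaling, limma-voom (limma 3.58.1), no filter, a mean of at least 10 counts, the replicate number as a block, and each library left out. The values of 1 of the laminin chains tested are not reported here. Coding length and the macrophage sum without Lyz2 were added after seeing the data.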

Additional observations from a re-analysis of the deposited data

How the results depend on the processing

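Over 34 genes and 13 alternatives, 403 of 442 comparisons kept the direction and the side of the threshold, 23 lost a call, 13 gained one and 3 changed sign. Only the 10 called genes could lose a call, while uncalled genes counted as kept by staying uncalled. Itga1, Itgav and Lama1 stayed called in all 13, and each of the other called genes lost its call in at least 1. The sign changes were all without Pcif1fl/fl replicate 1 and of uncalled genes. Over the left-out libraries, log2 fold changes ran from -0.17 to 0.014 for Lamb2, -0.013 to 0.46 for Itga4 and -0.0018 to 0.12 for Itgb8. With DESeq2, 11 genes were higher, 2 up-regulated and 4 leukocyte integrins higher, beside 2.95% of all genes higher. Without the expression filter, 2 were up-regulated and 3 leukocyte integrins higher, beside 2.2% of all genes higher. Itgad was among them in both fits. Leaving out 1 library gave 2 to 5 lower, 1 to 13 higher and 0 to 2 up-regulated. Over all genes, the shares in those fits ran from 2.32% to 10.4% lower and 1.06% to 11.1% higher. Stromal integrins were at 1 to 3 lower and 1 to 7 higher, and leukocyte integrins at 0 to 4 higher. Laminins were at 1 to 2 lower and 0 to 1 higher. The counts of 13, 7 and 4 higher came without Pcif1fl/fl replicate 3. The first and last included Itgad, which passed the filter through CKO alone. Most low ends came without a Prrx1-Cre;Pcif1fl/fl library. The cause of these differences was not tested.

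Same-numbered libraries did not deviate together (correlations 0.055, -0.045 and -0.013), so the numbers were not taken to pair them. With the replicate number as a block, Itga3 lost its call (log2 fold change 0.65, adjusted p = 0.0546), 4 genes were lower and 5 higher, and over all genes 503 were lower and 267 higher, against 620 and 396 without it. Total-count scaling also took the call of Itga3 (adjusted p = 0.054). At these depths, Itgb6, Lamc3 and Itgad had too few counts for the filter.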
